A study of Mus musculus with 20 samples.

Results

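The 39 genes described here come from a fixed list of macrophage and myeloid symbols, out of the 55471 gene rows of the count table. Not all are restricted to myeloid cells, and Ptprc, for example, is a pan-leukocyte gene. Each symbol matched a single row. No measured value enters the rule for membership, although earlier results of these data were known when the list was drawn up. It holds 3 lineage and growth factor receptors, 2 chemokine receptors, 5 Fc receptor and ITAM adaptor genes, 7 pattern recognition and costimulation genes, 3 scavenger receptors, 7 lysosome and effector genes, 6 adhesion and cytoskeleton genes, 2 MS4A genes and 4 genes of the leukocyte antigen and transcription factor group.

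Macrophages in the kidney lie between the tubules and around the glomeruli, where they clear debris and sense damage. They are replenished in part by blood monocytes, which leave the vessels through the chemokine receptor encoded by Ccr2 and adhere through integrins that contain the product of Itgb2. Many of their activating receptors carry no signalling domain of their own and act through adaptors with an ITAM motif, encoded by Fcer1g and Tyrobp. The lineage depends on the transcription factor PU.1, encoded by Spi1, and on the receptor encoded by Csf1r, whose ligands are Csf1 and Il34.

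RNA was sequenced from the whole kidneys of 20 female mice aged 2 months, each giving a single library. In the transgenic experiment, 3 i-TERTci mice, which carry both the actin-rtTA+ and the tetOp-TERTci+ transgenes, were compared with 4 mice carrying actin-rtTA+ alone. All 7 were of a mixed background and drank doxycycline at 2 mg/ml for 15 days, and their kidneys were taken on day 8 of the reversal after withdrawal (R8). TERTci is a catalytically inactive form of the telomerase protein subunit, and the rtTA transgene allows its expression in all tissues while doxycycline is given, not only in the kidney. In the nephropathy experiment, mice of a Balb/c background received a tail vein injection of either saline or 12 mg/kg of ADR (Adriamycin, also called doxorubicin), a drug toxic to podocytes, and kidneys were taken on day 18. These were 3 TERT KO/KO mice given ADR, 3 TERT WT/WT mice given ADR, 3 TERT KO/KO mice given saline and 4 TERT WT/WT mice given saline. The TERT KO/KO mice lack TERT in every cell from the germline onward and were of the first homozygous generation, and the TERT WT/WT mice were their littermates. The question put to the genes below is how their transcripts differed between injured kidneys and their controls, and whether the TERT genotype altered that difference.

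The libraries held 39323498 to 48399322 counts. Tert had 1070, 1086 and 230 counts in i-TERTci replicates 1, 2 and 3, against 87 to 164 in the actin-rtTA+ libraries. In the TERT KO/KO kidneys it had 210 and 105 counts in ADR replicates 1 and 3 and 51 to 132 counts after saline, against 164 to 379 counts after ADR and 122 to 187 after saline in TERT WT/WT kidneys. The counts over the whole gene do not show which part of it is deleted, so they are no check of the genotype. Replicate 2 of the TERT KO/KO mice given ADR did not look like kidney. Alb, the serum albumin gene of hepatocytes, took 26.1% of its counts (levels below are in CPM, counts scaled to a library of 1000000), while no other library exceeded 82.9 CPM, and only 2 counts fell on Nphs1, which encodes nephrin of the podocyte slit diaphragm, where the other libraries had 167 or more. It also held the markers of Kupffer cells, the macrophages of the liver, at a summed 247 CPM, against at most 0.375 CPM in the other 19 libraries. Its macrophage transcripts therefore cannot be assigned to the kidney, so this library was left out of the group means and main fits, and TERT KO/KO ADR below stands for replicates 1 and 3. Counts that change when it is kept are given with the result.

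The sequence upstream of several of these genes could be read, and that of 4 is printed because they had the smallest p-values after ADR in TERT WT/WT kidneys among members with a window. Each is the 250 bases before the start of transcription in RefSeq, on the gene's own strand, in build GRCm38.p6. Capitals mark GAGGAA, the core letters bound by PU.1, or its reverse complement TTCCTC.
Itgam, chr7:128062390-128062639, plus strand: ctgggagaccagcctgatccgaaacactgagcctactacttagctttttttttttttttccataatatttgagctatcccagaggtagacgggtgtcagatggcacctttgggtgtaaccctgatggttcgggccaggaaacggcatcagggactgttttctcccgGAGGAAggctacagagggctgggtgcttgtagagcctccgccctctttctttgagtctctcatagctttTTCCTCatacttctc
Cd68, chr11:69666171-69666420, minus strand: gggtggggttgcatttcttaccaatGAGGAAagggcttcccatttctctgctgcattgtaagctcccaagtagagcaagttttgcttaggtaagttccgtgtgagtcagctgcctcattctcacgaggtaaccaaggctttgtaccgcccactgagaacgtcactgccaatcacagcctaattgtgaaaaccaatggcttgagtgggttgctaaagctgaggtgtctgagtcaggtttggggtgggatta
Trem2, chr17:48346151-48346400, plus strand: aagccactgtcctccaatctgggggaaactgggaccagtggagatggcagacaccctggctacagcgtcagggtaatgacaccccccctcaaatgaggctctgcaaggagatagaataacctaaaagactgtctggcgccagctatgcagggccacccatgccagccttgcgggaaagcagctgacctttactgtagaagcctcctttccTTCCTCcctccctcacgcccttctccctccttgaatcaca
Ms4a6c, chr19:11469118-11469367, plus strand: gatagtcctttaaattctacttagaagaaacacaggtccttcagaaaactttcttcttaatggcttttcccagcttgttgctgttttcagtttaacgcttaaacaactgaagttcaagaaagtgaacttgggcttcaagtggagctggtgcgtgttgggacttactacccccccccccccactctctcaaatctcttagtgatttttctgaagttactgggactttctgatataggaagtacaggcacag
Itgam held a match at each of 2 positions, with first bases 84 and 15 bases before the start. Cd68 held 1 match, 225 bases before the start, and Trem2 held 1 match, 40 bases before it. Ms4a6c held none, which says only that these letters are not in its window. Windows were found for 31 of the 39 members, and 14 of the 31 (45.2%) held the letters on either strand in at least 1 window. Over all genes with a window the share was 25.9%, and over single windows it was 16 of 39 for members (41.0%) and 7639 of 32851 in all (23.3%). These are descriptions of letters and not of binding.

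After ADR in TERT WT/WT kidneys, 35 of the 39 members rose and none fell (edgeR's quasi-likelihood test, Benjamini-Hochberg adjusted p under 0.05 over 19023 genes). Of all genes tested, 15.2% were called higher in that comparison. The median log2 fold change of the members was 2.10, against 0.01 over all genes. The 4 members that did not pass were Csf1r, Folr2, Cd163 and Lcp1. In 35 members each of the 3 ADR libraries was above each of the 4 saline libraries, a separation that 17.3% of all tested genes showed. With the liver-like library kept in the fit, 24 members were called, where 4.1% of all genes were called higher. Because these are whole kidneys, more cells of a type, more RNA per cell and transcription in another cell type cannot be told apart.

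After ADR in TERT KO/KO kidneys, 8 of the 39 members rose and none fell, with 3.83% of all genes called higher. These were Cd14, Tlr2, Cd68, Gpnmb, Lyz2, Laptm5, Itgam and Ms4a6c. The median log2 fold change was 1.23, and 27 members had an unadjusted p under 0.05, as did 4587 of all 19023 genes. The 2 ADR libraries of this genotype differed in level. Replicate 3 was above all 3 saline libraries in 37 members, with a median log2 ratio of 1.86 to the saline mean. Replicate 1 was above them in 20 members and below them in 11, with a median of 0.30. The share of all genes above or below the saline libraries in a single library was not counted. Adgre1, Fcgr1, Clec7a, Mpeg1, Ptprc and Irf8 were among the 11 below, while Cd14, Tlr2, Trem2, Cd68, Gpnmb, Lyz2 and Itgam were among the 20 above. Without replicate 1, 25 members were called higher (4.84% of all genes), and without replicate 3, none (1.06% of all genes) and Csf1r alone was called lower. The median log2 fold change was 1.88 without replicate 1 and 0.30 without replicate 3. Either omission leaves an ADR arm of 1 mouse, whose spread is then assumed to be that of the other groups, so these counts describe that mouse rather than the condition. DESeq2 called 18 members higher (7.05% of all genes), and edgeR with the liver-like library called 2 (1.32% of all genes), Cd68 and Ms4a6c. Both ADR libraries were above the saline libraries in 19 members, where 21.3% of all genes were so separated.

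In i-TERTci kidneys at R8, none of the 38 members tested passed edgeR's test, which called 0.00564% of genes higher, that is 1 of 17745. All 38 had a log2 fold change above 0, with a median of 2.31 against 0.02 over all genes, and 36 had an unadjusted p under 0.05, as did 3972 of all 17745 genes. The smallest adjusted p was 0.0758, the value of 19 of the 38, and the largest was 0.918 (Folr2). DESeq2 called 35 of them higher, with 8.52% of all genes called higher. Replicate 2 stood apart from replicates 1 and 3. Replicates 1 and 3 were each above all 4 actin-rtTA+ libraries in 38 of 39 members, with median log2 ratios of 3.10 and 2.33 to the control mean, and replicate 2 was above them in 21, with a median of 0.41. The share of all genes above the controls in a single library was not counted. Without replicate 2, edgeR called 38 of 39 members higher, all but Folr2, with 15.1% of all genes called higher. In 19 of the 38 members all 3 i-TERTci libraries lay above all 4 controls, as 9.01% of all tested genes did.

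**Figure D1:**
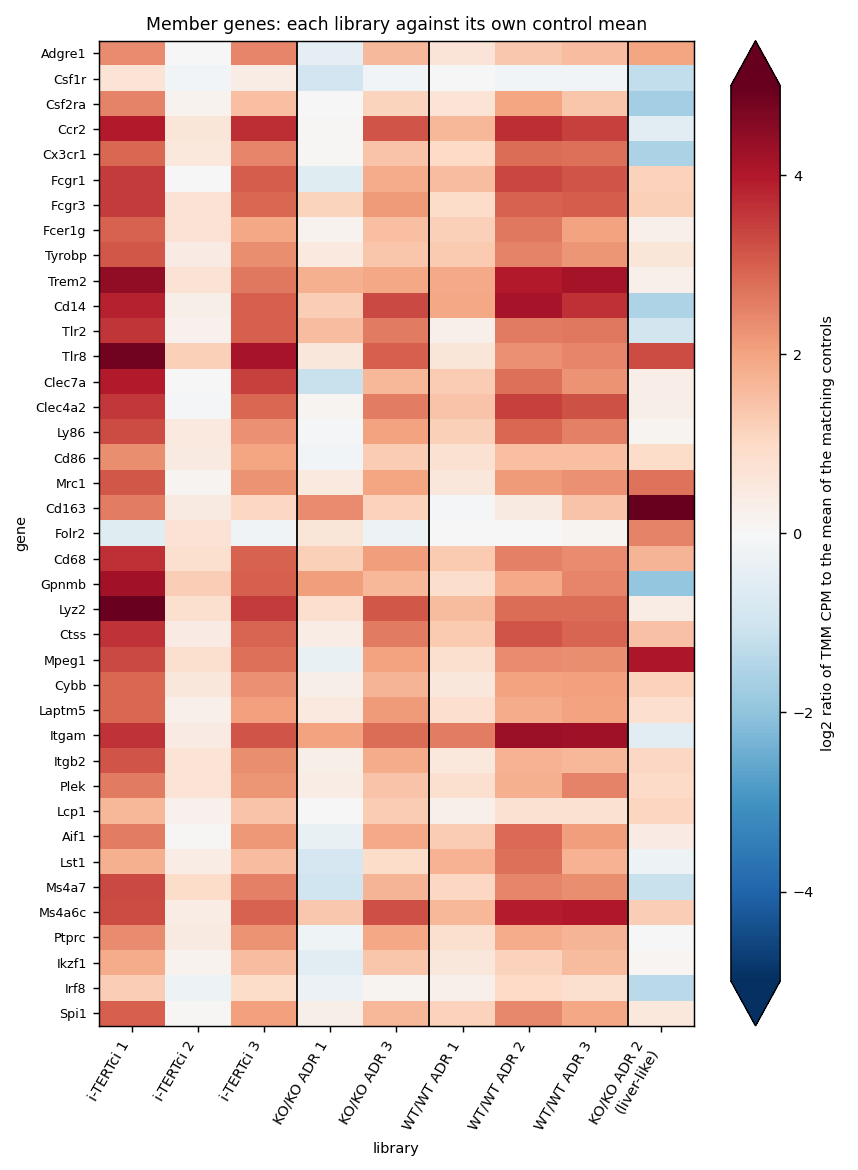
Log2 ratio of each member gene in each injured library to the mean of its own controls (TMM-scaled CPM with 0.1 added). The order is i-TERTci, TERT KO/KO ADR, TERT WT/WT ADR and then the liver-like library, whose CPM are scaled to its total only. The colour scale ends at 5 on each side. i-TERTci replicate 2 and TERT KO/KO ADR replicate 1 are paler than the other libraries of their groups, with median ratios of 0.41 and 0.30.

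Among the lineage and growth factor receptors, Adgre1 and Csf2ra rose after ADR in TERT WT/WT kidneys and Csf1r did not pass. Adgre1 encodes the F4/80 antigen, the classic surface marker of mouse macrophages. It had 5.27, 8.66 and 9.96 CPM in the 3 TERT WT/WT ADR libraries, against 3.93, 3.78, 2.79 and 2.77 CPM in the 4 saline libraries, and the groups did not overlap. The log2 fold change was 1.26 ± 0.38 (SE, edgeR adjusted p = 0.0290). Adgre1 was at 2.13 and 9.44 CPM after ADR in TERT KO/KO kidneys, against 2.94, 2.69 and 3.43 CPM after saline, so that 1 ADR library lay below and 1 above all 3 saline libraries. Adgre1 was at 22.1, 4.22 and 23.2 CPM in i-TERTci kidneys, against 4.85, 3.39, 3.59 and 5.08 CPM in actin-rtTA+ kidneys, with replicate 2 inside the control range. Csf2ra, which encodes the ligand-binding chain of the GM-CSF receptor, had 27.2, 67.02 and 44.8 CPM in TERT WT/WT ADR libraries, against 13.3 to 22.8 CPM in saline libraries (log2 fold change 1.45 ± 0.32, edgeR adjusted p = 0.00872).

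Csf1r, the receptor that macrophages need for survival, did not pass in either ADR comparison or in the i-TERTci comparison. It had 106, 95.3 and 94.5 CPM in TERT WT/WT ADR libraries, against 118, 101, 95.9 and 100.4 CPM in saline libraries. The log2 fold change was -0.07 with a 95% interval of -0.42 to 0.27 (edgeR adjusted p = 0.759), so a change of the size seen in Adgre1 lies outside the interval. Csf1r was at 54.8 and 95.9 CPM after ADR in TERT KO/KO kidneys, against 102, 103 and 115 CPM after saline, and both ADR libraries were below the saline range. Csf1r was at 141, 80.2 and 115 CPM in i-TERTci kidneys, against 74.2, 102, 91.9 and 87.6 CPM in actin-rtTA+ kidneys, with overlap. Per kilobase of annotated exon, Csf1r ranked 2 among the 39 members in TERT WT/WT saline kidneys, 18.0 CPM per kilobase, below Lyz2 with 22.2 and above Fcer1g with 10.3. Its exons share 873 bases with Hmgxb3 on the opposite strand, and the strand setting of the counting is not known, so part of its counts may belong to that gene.

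Both chemokine receptors rose after ADR in TERT WT/WT kidneys. Ccr2, which binds Ccl2 and Ccl7 and draws monocytes out of bone marrow and blood, had 7.13, 29.4 and 24.3 CPM in the ADR libraries, against 2.496, 2.65, 2.01 and 1.62 CPM in the saline libraries. That is a log2 fold change of 3.20 ± 0.61 (edgeR adjusted p = 0.00466), with no overlap. Ccr2 was at 2.49 and 21.8 CPM after ADR in TERT KO/KO kidneys, against 1.77, 2.52 and 2.79 CPM after saline, and only replicate 3 was outside the saline range (edgeR adjusted p = 0.0744). Ccr2 was at 45.3, 4.37 and 37.1 CPM in i-TERTci kidneys, against 2.07, 3.39, 2.35 and 3.41 CPM in actin-rtTA+ kidneys, and all 3 were above all 4 controls (log2 fold change 3.37 ± 0.65, edgeR adjusted p = 0.0758). Cx3cr1, the receptor for the membrane-bound chemokine Cx3cl1, had 12.8, 44.5 and 43.02 CPM in TERT WT/WT ADR libraries, against 5.903 to 6.75 CPM after saline (log2 fold change 2.40 ± 0.39, edgeR adjusted p = 0.00223). Cx3cr1 was at 7.003 and 18.4 CPM after ADR in TERT KO/KO kidneys, against 5.97, 6.89 and 7.32 CPM after saline. Cx3cr1 was at 47.4, 9.03 and 34.9 CPM in i-TERTci kidneys, against 5.86 to 6.97 CPM in actin-rtTA+ kidneys, again with no overlap.

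All 5 genes of the Fc receptor and ITAM group rose after ADR in TERT WT/WT kidneys, with log2 fold changes of 2.08 to 3.90. Trem2, a lipid-sensing receptor of phagocytes that signals through Tyrobp, had the largest of them. It had 1.88, 8.22 and 9.49 CPM in the ADR libraries, against 0.499, 0.637, 0.354 and 0.235 CPM in the saline libraries (log2 fold change 3.90 ± 0.52, edgeR adjusted p = 0.00108). Trem2 was at 2.05 and 2.27 CPM after ADR in TERT KO/KO kidneys, against 0.350, 0.340 and 0.884 CPM after saline, so both ADR libraries lay above the saline range and close to each other, although the test was not passed (edgeR adjusted p = 0.0713). Trem2 was at 17.04, 1.19 and 4.78 CPM in i-TERTci kidneys, against 0.388, 0.611, 0.966 and 0.770 CPM in actin-rtTA+ kidneys. Fcgr3, an activating receptor for IgG complexes, had 6.53, 27.2 and 28.1 CPM in TERT WT/WT ADR libraries, against 3.52, 3.46, 3.32 and 3.32 CPM in saline libraries (log2 fold change 2.60 ± 0.40, edgeR adjusted p = 0.00188). Fcgr3 was at 38.1, 5.46 and 24.5 CPM in i-TERTci kidneys, against 2.35, 3.64, 3.57 and 3.64 CPM in actin-rtTA+ kidneys. Fcer1g, the signalling chain that Fc receptors share, had 20.8, 57.03 and 36.8 CPM in TERT WT/WT ADR libraries, against 7.03 to 11.4 CPM after saline, and 77.8, 16.9 and 38.6 CPM in i-TERTci kidneys, against 6.14 to 17.3 CPM in actin-rtTA+ kidneys, where replicate 2 was inside the range. In TERT KO/KO kidneys none of the 5 passed, with log2 fold changes of 1.00 to 2.04. Reads of the Fc gamma receptors can be shared between near-identical copies, and how the counting treated such reads is not stated.

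All 7 pattern recognition and costimulation genes rose after ADR in TERT WT/WT kidneys, with a median log2 fold change of 2.38. Cd14, the co-receptor that hands bacterial lipopolysaccharide to Toll-like receptors, had 39.5, 178 and 128 CPM in the ADR libraries, against 10.7, 11.00, 10.2 and 8.91 CPM in the saline libraries (log2 fold change 3.50 ± 0.49, edgeR adjusted p = 0.00144). It also rose in TERT KO/KO kidneys, with 25.7 and 107 CPM after ADR, against 10.2, 9.76 and 12.8 CPM after saline (log2 fold change 2.60 ± 0.57, edgeR adjusted p = 0.0260). Cd14 was at 157, 13.2 and 87.3 CPM in i-TERTci kidneys, against 9.56, 9.298, 10.7 and 13.7 CPM in actin-rtTA+ kidneys, and replicate 2 lay inside the control range. Tlr2, a receptor for bacterial lipoproteins, was the other member of the group that rose in TERT KO/KO kidneys. It had 14.1 and 29.7 CPM after ADR, against 5.58, 4.71 and 4.15 CPM after saline (log2 fold change 2.19 ± 0.54, edgeR adjusted p = 0.0394). In TERT WT/WT kidneys Tlr2 had 7.15, 37.1 and 38.6 CPM after ADR, against 5.08, 7.43, 6.37 and 5.302 CPM after saline, so replicate 1 was within the saline range. Tlr8, an endosomal sensor of RNA, was the member removed by the filter on low counts in the i-TERTci fit. It had 3.75, 0.207 and 2.21 CPM in i-TERTci kidneys, against 0.0431, 0.0510, 0.0230 and 0.0208 CPM in actin-rtTA+ kidneys. Clec7a (Dectin-1, a receptor for fungal glucans), Clec4a2 (an inhibitory lectin), Ly86 (a Toll-like receptor accessory protein) and Cd86 (a costimulatory ligand for T cells) had log2 fold changes between 1.35 and 3.15 in TERT WT/WT kidneys and between 0.76 and 1.92 in TERT KO/KO kidneys, where they did not pass.

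**Figure D2:**
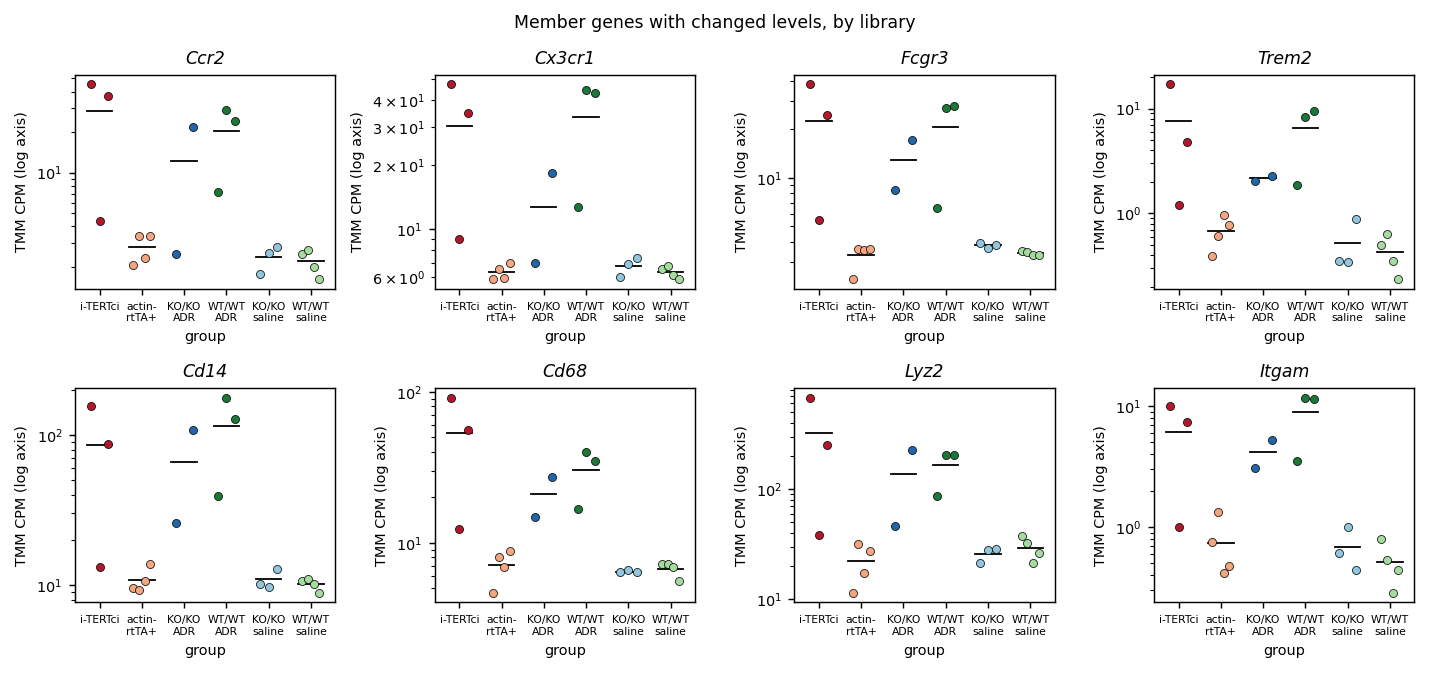
TMM-scaled CPM of 8 member genes in each library on a log axis, by group, with points for libraries and a line at the group mean. The TERT KO/KO ADR group holds replicates 1 and 3. Cd14 in the 3 TERT WT/WT ADR libraries was between 39.5 and 178 CPM, above the 4 saline libraries at 8.91 to 11.00 CPM.

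Of the 3 scavenger and endocytic receptors 1 rose after ADR in TERT WT/WT kidneys, and differences between the 3 were not tested. Mrc1, the mannose receptor, had 6.34, 19.2 and 21.2 CPM in TERT WT/WT ADR libraries, against 4.67, 4.21, 4.42 and 3.89 CPM in saline libraries, and it rose (log2 fold change 1.86 ± 0.38, edgeR adjusted p = 0.00584). Mrc1 was at 6.64 and 18.7 CPM after ADR in TERT KO/KO kidneys, against 4.64, 4.77 and 4.64 CPM after saline, and in i-TERTci kidneys 42.4, 5.43 and 23.6 CPM, against 4.44, 4.87, 4.26 and 5.91 CPM in actin-rtTA+ kidneys. Cd163, which takes up haemoglobin bound to haptoglobin, was the least abundant member per kilobase of exon in TERT WT/WT saline kidneys, at 0.0199 CPM per kilobase. It had 0.0954, 0.181 and 0.457 CPM after ADR in TERT WT/WT kidneys, against 0.182, 0.0637, 0.111 and 0.0784 CPM after saline, which overlap (log2 fold change 1.19 ± 0.71, edgeR adjusted p = 0.223). Cd163 was at 0.802 and 0.289 CPM after ADR in TERT KO/KO kidneys, against 0.117, 0 and 0.111 CPM after saline (log2 fold change 2.76 ± 0.84, edgeR adjusted p = 0.0744), and at these levels the counting error is a large share of each value. Folr2, a folate receptor of tissue macrophages, had 0.954, 0.952 and 1.05 CPM after ADR in TERT WT/WT kidneys, against 1.16, 0.871, 0.818 and 0.940 CPM after saline. Its log2 fold change was 0.06 with a 95% interval of -0.60 to 0.72, and in i-TERTci kidneys it was 0.09 with an interval of -0.84 to 1.02. In i-TERTci kidneys Folr2 was highest in replicate 2 at 3.08 CPM, the library in which the other members were lowest, with 1.17 and 1.57 CPM in replicates 1 and 3.

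All 7 lysosome and effector genes rose after ADR in TERT WT/WT kidneys and 4 of them rose in TERT KO/KO kidneys. Lyz2, the lysozyme of myeloid cells, had 87.5, 202 and 203 CPM in TERT WT/WT ADR libraries, against 37.2, 32.2, 21.3 and 26.3 CPM in saline libraries (log2 fold change 2.49 ± 0.44, edgeR adjusted p = 0.00342). It had 46.5 and 225 CPM in TERT KO/KO ADR libraries, against 21.6, 27.9 and 28.5 CPM in saline libraries (log2 fold change 2.39 ± 0.52, edgeR adjusted p = 0.0260). Lyz2 was at 678, 38.4 and 251 CPM in i-TERTci kidneys, against 11.5, 31.97, 17.2 and 27.7 CPM in actin-rtTA+ kidneys, the largest fitted difference of the 38 members tested there, without Tlr8, at 3.87 ± 0.81 log2 units. Lyz2 has a close copy, Lyz1, and reads common to both could be counted for either. Cd68, a lysosomal membrane glycoprotein of phagocytes, had 16.7, 39.6 and 34.9 CPM in TERT WT/WT ADR libraries, against 7.19, 7.24, 6.95 and 5.56 CPM in saline libraries, and 14.7 and 27.4 CPM in TERT KO/KO ADR libraries, against 6.37, 6.58 and 6.36 CPM in saline libraries. Its log2 fold changes were 2.17 ± 0.27 and 1.71 ± 0.31 (edgeR adjusted p = 0.000848 and 0.0123). In TERT KO/KO kidneys it also rose with the liver-like library kept. Cd68 was at 91.4, 12.3 and 55.99 CPM in i-TERTci kidneys, against 4.67, 8.05, 6.903 and 8.77 CPM in actin-rtTA+ kidneys, with no overlap.

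Mpeg1 encodes perforin-2, a pore-forming protein of phagocytes that acts on engulfed bacteria. It had 23.7, 69.7 and 68.1 CPM in TERT WT/WT ADR libraries, against 13.4, 13.4, 14.7 and 12.8 CPM in saline libraries, and it rose (log2 fold change 1.99 ± 0.45, edgeR adjusted p = 0.00958). Mpeg1 was at 9.87 and 51.2 CPM after ADR in TERT KO/KO kidneys, against 13.1, 11.6 and 13.6 CPM after saline, so replicate 1 was below every saline library. Mpeg1 was at 129, 22.4 and 87.6 CPM in i-TERTci kidneys, against 11.6, 13.5, 10.4 and 15.9 CPM in actin-rtTA+ kidneys, with no overlap. Gpnmb, a glycoprotein of lipid-laden macrophages, and Laptm5, a lysosomal protein of leukocytes, rose in both ADR comparisons. Gpnmb had 2.15 and 1.58 CPM in TERT KO/KO ADR libraries, against 0.327, 0.454 and 0.525 CPM in saline libraries (log2 fold change 2.10 ± 0.44, edgeR adjusted p = 0.0216). Ctss, a lysosomal protease that processes antigen, and Cybb, the catalytic subunit of the phagocyte NADPH oxidase, had log2 fold changes of 2.67 and 1.70 in TERT WT/WT kidneys and of 1.89 and 1.17 in TERT KO/KO kidneys, where they did not pass (edgeR adjusted p = 0.0668 and 0.110).

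Of the 6 adhesion and cytoskeleton genes, 5 rose after ADR in TERT WT/WT kidneys and 1 in TERT KO/KO kidneys. Itgam encodes the integrin alpha chain CD11b, which pairs with the product of Itgb2 and binds complement fragments and Icam1. It had the largest log2 fold change of the 39 members in TERT WT/WT kidneys, 4.10 ± 0.46 (edgeR adjusted p = 0.000712), with 3.53, 11.7 and 11.4 CPM in ADR libraries, against 0.794, 0.531, 0.288 and 0.444 CPM in saline libraries. It rose in TERT KO/KO kidneys too, with 3.06 and 5.28 CPM after ADR, against 0.607, 0.993 and 0.442 CPM after saline (log2 fold change 2.62 ± 0.52, edgeR adjusted p = 0.0173). Itgam was at 10.1, 1.01 and 7.34 CPM in i-TERTci kidneys, against 0.754, 1.32, 0.414 and 0.479 CPM in actin-rtTA+ kidneys. Its annotated exons share 3450 bases with the gene model Gm49368 on the same strand, so its counts may be only part of its reads. Itgb2, the beta chain of the leukocyte integrins, had 6.51, 15.2 and 14.5 CPM in TERT WT/WT ADR libraries, against 4.31 to 4.79 CPM after saline (log2 fold change 1.41 ± 0.33, edgeR adjusted p = 0.0107), and 5.44 and 16.4 CPM in TERT KO/KO ADR libraries, against 3.896 to 5.03 CPM after saline.

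Lcp1 encodes L-plastin, which bundles actin in leukocytes. It had 33.1, 47.3 and 47.5 CPM in TERT WT/WT ADR libraries, against 25.7, 26.2, 30.5 and 28.2 CPM in saline libraries, and the groups did not overlap, but its log2 fold change of 0.63 ± 0.23 missed the threshold (edgeR adjusted p = 0.0586). Lcp1 was at 98.9, 36.5 and 83.8 CPM in i-TERTci kidneys, against 31.2, 30.4, 29.6 and 34.8 CPM in actin-rtTA+ kidneys. Plek (a substrate of protein kinase C in leukocytes and platelets), Aif1 (Iba1, an actin-binding marker of macrophages) and Lst1 (a leukocyte membrane adaptor) rose in TERT WT/WT kidneys with log2 fold changes of 1.90, 2.29 and 2.23. Both MS4A genes, which encode membrane proteins of myeloid cells, rose there as well. Ms4a6c had 4.48, 21.8 and 22.9 CPM in TERT WT/WT ADR libraries, against 1.16, 1.49, 1.504 and 1.23 CPM in saline libraries (log2 fold change 3.61 ± 0.53, edgeR adjusted p = 0.00161). It rose in TERT KO/KO kidneys with 4.28 and 15.8 CPM after ADR, against 1.400, 1.67 and 1.74 CPM after saline (log2 fold change 2.65 ± 0.61, edgeR adjusted p = 0.0322). Its exons share 1088 bases with an opposite-strand transcript, and reads of closely related MS4A genes could be shared with it. Ms4a7 did not pass in TERT KO/KO kidneys, with 0.232 and 2.06 CPM after ADR, against 0.490, 0.709 and 0.497 CPM after saline. Its replicate 1 was below and its replicate 3 above every saline library, as in several other members, and replicate 1 held only 11 counts. In i-TERTci kidneys Ms4a7 had 7.32, 1.32 and 4.25 CPM, against 0.711, 0.586, 0.506 and 0.812 CPM in actin-rtTA+ kidneys, with no overlap.

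The leukocyte antigen and the 3 transcription factors rose after ADR in TERT WT/WT kidneys by less than most members, with a median log2 fold change of 1.37 for the 4. Ptprc, the pan-leukocyte phosphatase CD45, had 10.6, 22.3 and 19.99 CPM in ADR libraries, against 7.92, 5.54, 5.29 and 5.51 CPM in saline libraries (log2 fold change 1.54 ± 0.39, edgeR adjusted p = 0.0156). Spi1, which encodes PU.1, had 11.7, 28.4 and 20.4 CPM in ADR libraries, against 6.33, 6.69, 4.38 and 3.500 CPM in saline libraries (log2 fold change 1.95 ± 0.36, edgeR adjusted p = 0.00374). Spi1 was at 55.1, 7.17 and 28.9 CPM in i-TERTci kidneys, against 4.24, 9.45, 6.54 and 7.22 CPM in actin-rtTA+ kidneys, and replicate 2 was inside the control range. Irf8, a factor for monocyte and dendritic cell development, had 21.8, 37.1 and 31.99 CPM in TERT WT/WT ADR libraries, against 17.1, 20.9, 18.3 and 17.7 CPM in saline libraries, and it rose by the smallest log2 fold change of any member called, 0.71 ± 0.17 (edgeR adjusted p = 0.0108). Irf8 was at 15.8 and 21.2 CPM after ADR in TERT KO/KO kidneys, against 16.9, 20.3 and 21.1 CPM after saline, with a log2 fold change of -0.07 and a 95% interval of -0.52 to 0.37. Ikzf1 (Ikaros) rose by a log2 fold change of 1.21 in TERT WT/WT kidneys (edgeR adjusted p = 0.0325) and did not pass in TERT KO/KO kidneys, at 0.74 (edgeR adjusted p = 0.330).

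**Figure D3:**
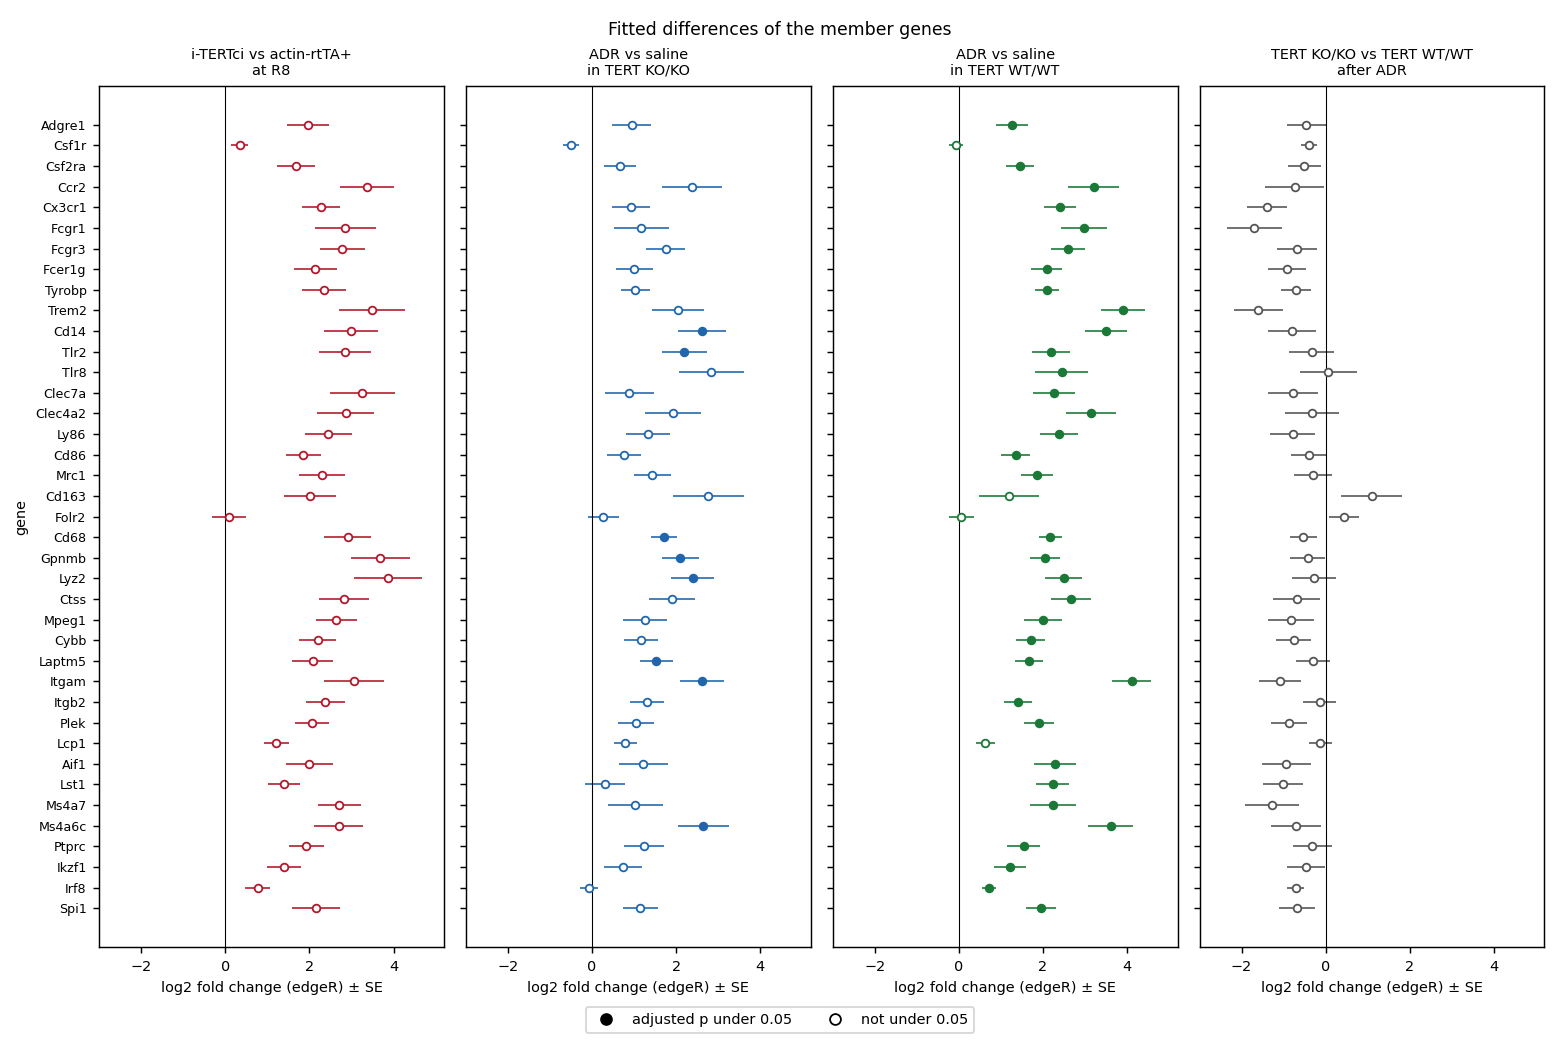
Fitted log2 fold changes of the member genes with their standard errors in 4 comparisons, filled where the edgeR adjusted p was under 0.05. In TERT WT/WT kidneys 35 of 39 are filled, in TERT KO/KO kidneys 8, and none in the i-TERTci comparison or between the genotypes after ADR.

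The genotypes were then compared directly. After saline, none of the 39 members passed for TERT KO/KO against TERT WT/WT kidneys in edgeR's test, which called 0.00526% of genes (1 of 19023), and DESeq2 also called none. The median log2 fold change was 0.09. An unadjusted p under 0.05 was found for 1672 of all genes and 1 member, Lst1, with 2.89, 3.74 and 3.59 CPM in TERT KO/KO, against 2.22, 2.32, 1.13 and 1.54 CPM in TERT WT/WT libraries. After ADR, none of the 39 passed either, with 0.0736% of genes called (14 of 19023), and DESeq2 called none. Here 36 of the 39 log2 fold changes were below 0, with a median of -0.68, and 5 had an unadjusted p under 0.05, as did 1458 of all 19023 genes. That direction rested largely on TERT KO/KO ADR replicate 1. Without it the median was -0.08 and 16 of 39 were above 0, while without TERT KO/KO ADR replicate 3 the median was -1.67, each with 1 TERT KO/KO ADR mouse left. The median was -0.38 with the liver-like library, and -0.95, -0.42 and -0.42 without TERT WT/WT ADR replicates 1, 2 and 3. The 5 were Cx3cr1, Fcgr1, Trem2, Itgam and Irf8, at -1.40, -1.69, -1.60, -1.09 and -0.72 log2 units (edgeR adjusted p = 0.492, 0.571, 0.535, 0.649 and 0.371). Cx3cr1 had 7.003 and 18.4 CPM in TERT KO/KO ADR, against 12.8, 44.5 and 43.02 CPM in TERT WT/WT ADR libraries, which overlap. The 95% interval of its difference was -2.42 to -0.37 log2 units. TERT WT/WT ADR replicate 1 was lower than replicates 2 and 3 in most members, with a median log2 ratio of 0.92 to the saline mean, against 2.45 and 2.28. Without that library 5 members were called lower in TERT KO/KO kidneys, namely Cx3cr1, Fcgr3, Trem2, Itgam and Irf8, where 1.68% of all genes were called lower.

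The ADR effect in TERT KO/KO kidneys minus that in TERT WT/WT kidneys was tested as an interaction. None of the 39 members passed, and of the 19023 genes 0% were called, although 2288 genes, 5 members among them, had an unadjusted p under 0.05. DESeq2 called none of the members. The median difference over the members was -0.79 log2 units. It was -0.21 without TERT KO/KO ADR replicate 1, -1.65 without TERT KO/KO ADR replicate 3, -0.49 without TERT WT/WT ADR replicate 2 and -0.45 with the liver-like library, so its size depended on single libraries. For Irf8 it was -0.79 ± 0.27 and for Cx3cr1 -1.48 ± 0.60 (edgeR adjusted p = 0.338 and 0.378), while for Tlr2 it was -0.01 with a 95% interval of -1.58 to 1.57, and for Lyz2 -0.10 with an interval of -1.58 to 1.38. Without TERT WT/WT ADR replicate 1, Cx3cr1 and Irf8 were called lower, where 0.606% of all genes were. A difference in response between the genotypes was not shown for any member with all libraries used, and the intervals do not show that the responses were alike.

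The effect in i-TERTci kidneys was also set against the ADR effect in TERT WT/WT kidneys, with both experiments in a single fit. None of the 39 members passed, with 0.00505% of genes called (1 of 19783), 1 member at an unadjusted p under 0.05, and none called by DESeq2. The median difference was 0.21 log2 units, and its sign turned on single libraries. It was -0.24 without i-TERTci replicate 1, where 14 of 39 were above 0, -0.02 without TERT WT/WT ADR replicate 1 and 0.67 without i-TERTci replicate 2. Over the other omissions it was 0.09 to 0.52. The member with an unadjusted p under 0.05 was Tlr8, at 3.36 ± 1.23 log2 units (edgeR adjusted p = 0.606). Tlr8 had only 2, 2, 1 and 1 counts in the actin-rtTA+ libraries, so the size of its difference rests on very few reads. The intervals were wide. For Lyz2 the difference was 1.36 with an interval of -0.57 to 3.28, and for Itgam -1.06 with an interval of -2.89 to 0.76. Strain, treatment and day of collection all differed between the experiments and cannot be told apart from the injury model.

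**Figure D4:**
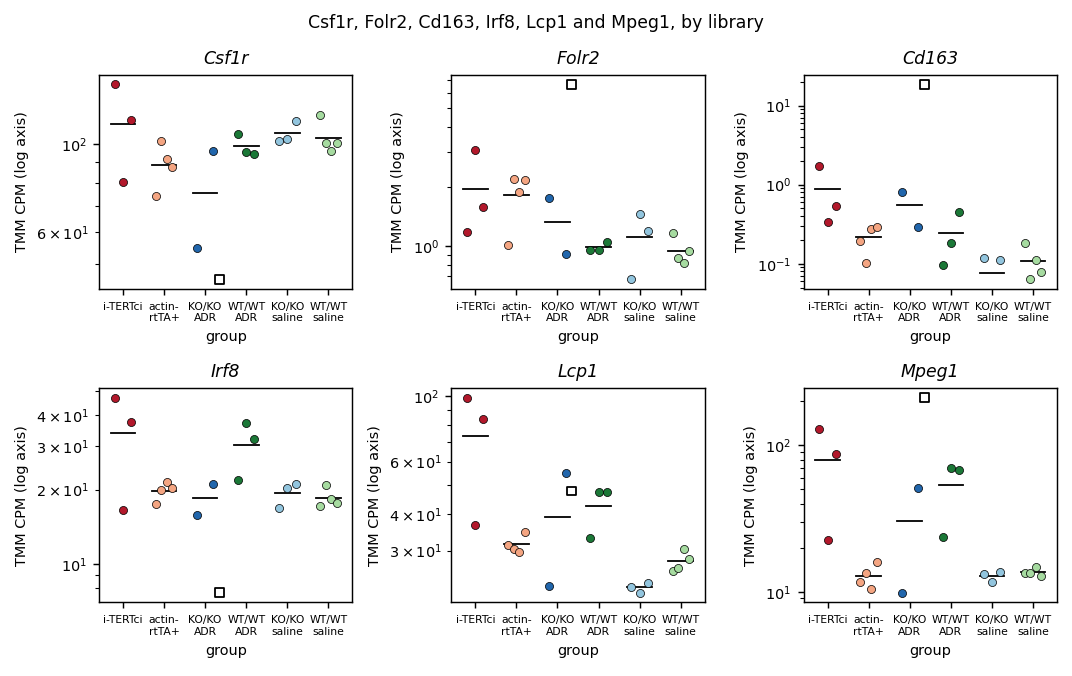
TMM-scaled CPM of Csf1r, Folr2, Cd163, Irf8, Lcp1 and Mpeg1 by library on log axes, with a line at each group mean. An open square, outside the mean, is the liver-like TERT KO/KO ADR replicate 2, whose CPM are scaled to its total only. Cd163 was at 18.6 CPM and Mpeg1 at 212 CPM in that library, above every other library of the ADR experiment, and Csf1r was at 45.7 CPM, below all of them.

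Ligands of the member receptors moved in the same comparisons. Of 12 listed ligands 11 were tested, and 8 rose after ADR in TERT WT/WT kidneys and 8 in TERT KO/KO kidneys, with none lower, where 15.2% and 3.83% of all genes were called higher. In each genotype the 8 ligands were Csf1, Il34, Ccl2, Ccl7, Ccl12, C3, Icam1 and Vcam1. In i-TERTci kidneys none of the 11 passed edgeR's test and all 11 had an unadjusted p under 0.05, as did 3972 of all 17745 genes. Csf1, the growth factor for Csf1r, had 19.98, 57.6 and 78.6 CPM in TERT WT/WT ADR libraries, against 15.9, 16.4, 14.8 and 13.8 CPM in saline libraries, and 41.03 and 83.98 CPM in TERT KO/KO ADR libraries, against 13.02, 14.01 and 14.5 CPM in saline libraries. C3, the complement component whose fragments bind the integrin of Itgam and Itgb2, had 341, 1929 and 2117 CPM in TERT WT/WT ADR libraries, against 121, 109.7, 121 and 159 CPM in saline libraries, and 850.2 and 1637 CPM in TERT KO/KO ADR libraries, against 84.5, 127 and 80.03 CPM in saline libraries. Ccl2, the main ligand of Ccr2, had 5.82, 56.5 and 43.6 CPM in TERT WT/WT ADR libraries, against 1.86, 1.402, 1.02 and 1.31 CPM in saline libraries (log2 fold change 4.66 ± 0.69, edgeR adjusted p = 0.00166). Ccl2 was at 6.79 and 27.7 CPM after ADR in TERT KO/KO kidneys, against 0.886, 1.901 and 1.35 CPM after saline (log2 fold change 3.65 ± 0.79, edgeR adjusted p = 0.0257). Ccl2 was at 46.6, 2.82 and 16.8 CPM in i-TERTci kidneys, against 0.151, 0.586, 0.851 and 1.71 CPM in actin-rtTA+ kidneys. Replicate 1 of the TERT KO/KO ADR group was above the saline range for Csf1, C3 and Ccl2, as it was not for Ccr2 or Csf1r. Cx3cl1 did not pass in any of the 3 comparisons.

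**Figure D5:**
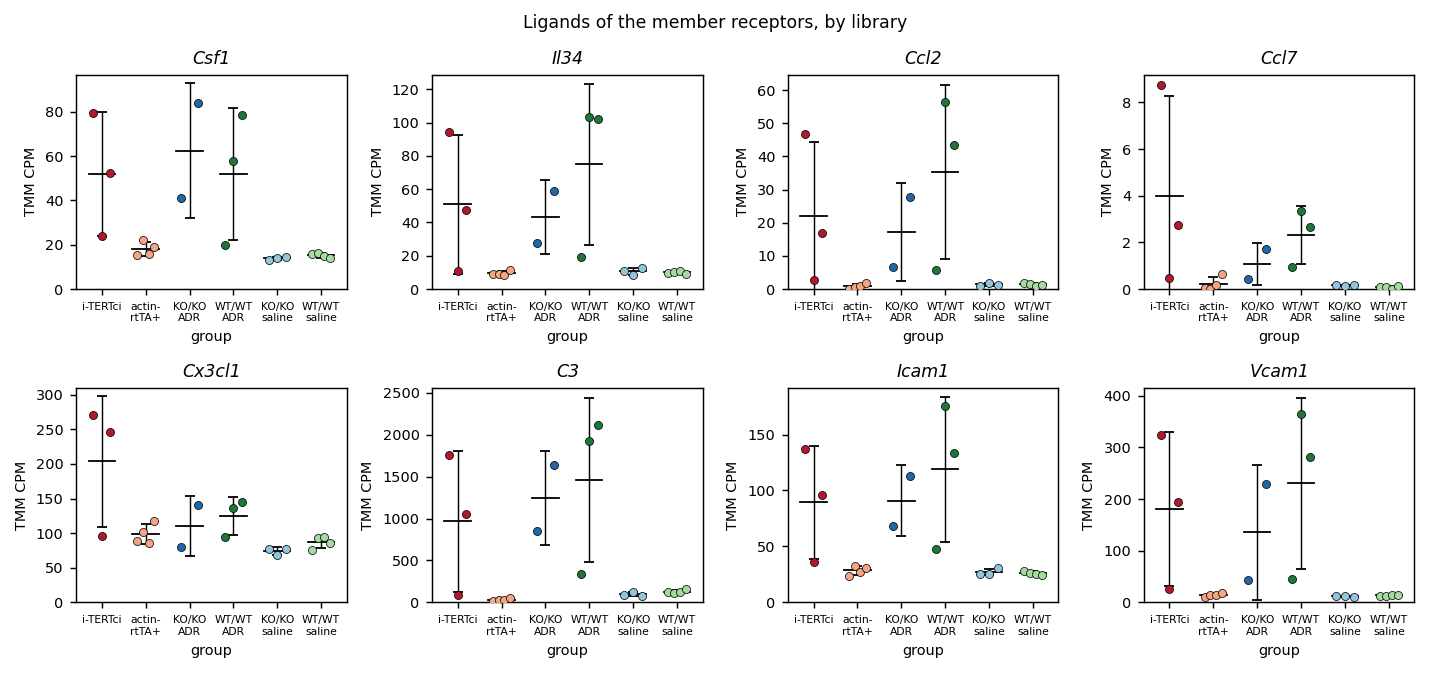
TMM-scaled CPM of 8 ligands of the member receptors by library, with the group mean and SD as bars and replicates 1 and 3 for TERT KO/KO ADR. Csf1 was at 41.03 and 83.98 CPM in the TERT KO/KO ADR libraries, above the saline libraries at 13.02 to 14.5 CPM.

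Some signalling partners of the members also rose. Of 13 genes of ITAM and Fc receptor signalling, 9 rose after ADR in TERT WT/WT kidneys and 2 in TERT KO/KO kidneys, the kinase gene Fgr and the phosphatase gene Inpp5d. Of 5 partners of Cybb in the NADPH oxidase, 4 rose in TERT WT/WT kidneys, all but Cyba. Ncf1 and Ncf4, which encode cytosolic subunits of the oxidase, rose in TERT KO/KO kidneys. Of 10 Toll-like receptor partners, 6 rose in TERT WT/WT kidneys and none in TERT KO/KO kidneys. Of 4 integrin partners tested, Itgax, Itgal and Fermt3 rose in TERT WT/WT kidneys. No gene of these 4 lists fell in either genotype. Of all genes tested, 15.2% were called higher in TERT WT/WT kidneys and 3.83% in TERT KO/KO kidneys, which had fewer ADR libraries. A difference between these counts is therefore not a test between the genotypes.

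Genes known from monocyte-derived and from resident macrophages of the mouse were both among those that rose. Of the 10 monocyte-derived genes 7 rose in TERT WT/WT kidneys and 2 in TERT KO/KO kidneys, Lgals3 and Spp1. Spp1, the secreted phosphoprotein osteopontin, which injured tubules also make, had a log2 fold change of 3.35 ± 0.43 after ADR for TERT WT/WT and of 2.78 ± 0.50 for TERT KO/KO (edgeR adjusted p = 0.000930 and 0.0108). Of the resident genes, C1qa, C1qb, C1qc and Hpgds rose in TERT WT/WT kidneys. C1qa, a complement subunit made by macrophages, had 32.9, 86.96 and 90.6 CPM in TERT WT/WT ADR libraries, against 15.6, 15.9, 10.2 and 11.00 CPM after saline, and 21.1 and 53.2 CPM in TERT KO/KO ADR libraries, against 11.5, 15.8 and 18.5 CPM after saline. No resident gene rose in TERT KO/KO kidneys, where 3.83% of all genes were called higher, against 15.2% in TERT WT/WT kidneys. A difference between these counts is not a test between the genotypes.

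Markers of other cell types are given beside the members, to be read against the 2883 genes called higher and the 2281 called lower among all 19023 in the TERT WT/WT comparison. There, 2 of 7 neutrophil markers tested rose, and the 9 listed summed to 2.85 to 5.89 CPM, against 1.02 to 2.08 CPM after saline. T and NK cell markers rose in 2 of 8, with sums of 8.58 to 14.6 CPM, against 5.38 to 8.60 CPM, dendritic cell markers in 1 of 6 (13.3 to 15.9 CPM, against 10.4 to 13.5 CPM) and B cell markers in none of 5. All 5 red blood cell markers rose (1498 to 3075 CPM, against 423 to 878 CPM). Of 6 fibroblast markers 4 rose and Pdgfra fell, and the list summed to 542 to 1166 CPM, against 266 to 290.5 CPM. Of 6 podocyte markers 5 fell, as did 3 of 6 proximal tubule markers and 3 of 5 endothelial markers. The proximal tubule list summed to 1918 to 8227 CPM after ADR, against 9605 to 11471 CPM after saline, and the library with the highest value was replicate 1, which had the lowest sum over the members, 580.2 CPM against 1374 and 1242 CPM in replicates 2 and 3. In i-TERTci kidneys the proximal tubule sum was 2258, 11503 and 6937 CPM in replicates 1, 2 and 3, against 11648 to 13297 CPM in actin-rtTA+ kidneys, and the member sum was 2521, 410.2 and 1454 CPM, against 276 to 391 CPM. In TERT KO/KO ADR replicates 1 and 3 the proximal tubule sum was 5316 and 3768 CPM, against 9655 to 10781 CPM after saline, and the member sum 363 and 1092 CPM, against 311 to 368 CPM. In TERT KO/KO ADR replicate 1 the neutrophil list summed to 8.31 CPM, the highest of the 20 libraries. The fibroblast list summed to 2616, 526 and 1922 CPM in i-TERTci replicates 1, 2 and 3, against 311 to 463 CPM in actin-rtTA+ kidneys, and to 614 and 1233 CPM in TERT KO/KO ADR replicates 1 and 3, against 280.2 to 317 CPM after saline. The part of these other cell types in the member values was not tested.

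In the liver-like library 21 members were above all 7 saline libraries of the ADR experiment. Of these Adgre1, Tlr8, Mrc1, Cd163, Folr2 and Mpeg1 were above the other 12 libraries of that experiment, at 12.03, 2.301, 31.5, 18.6, 6.63 and 212 CPM. The highest values elsewhere in the experiment were 0.802 CPM for Cd163 and 69.7 CPM for Mpeg1. Csf1r, Csf2ra, Ccr2, Cx3cr1, Cd14, Tlr2, Gpnmb, Ms4a7 and Irf8 were below all 12. The shares of all genes placed above or below these libraries were not counted, so these numbers are not a result about the members. The 5 Kupffer cell markers, Clec4f and Timd4 among them, were at or near 0 in the other libraries, with sums of 0 to 0.375 CPM. Clec4f alone was at 75.4 CPM in the liver-like library.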

How the data were processed

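The authors checked reads with FastQC, trimmed them with Trimmomatic and aligned them with STAR to mm10. The deposited values are whole-number counts per gene, not normalized, with 1 column per mouse. The counting tool, annotation release and strand setting are not given in the sources used here. Symbols, exon lengths and overlaps came from GENCODE M21 (55144 of 55471 IDs matched). Promoters came from the RefSeq table for GRCm38.p6, the same primary assembly as mm10.

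Counts were tested with edgeR 4.0.16 in R 4.3.3 (filterByExpr, TMM, robust quasi-likelihood F test, Benjamini-Hochberg adjustment over all genes tested, threshold 0.05). The 7 libraries of the i-TERTci experiment and the 12 used of the ADR experiment were fitted apart, and the difference between models in 19 libraries. SE are of fitted log2 fold changes, and intervals are 95%. CPM are TMM-scaled, except for the liver-like library, which is scaled to its total. Ratios of single libraries use 0.1 CPM added. Tests were also run on simulated counts with known changes in whole groups. No single library was made to stand apart in them, and their outcome is not used here. Leaving out the liver-like library was a rule known from earlier results, and the members, gene lists and tests were chosen with earlier results of these data known. Library values are given, in each role, for the member with the highest mean CPM and those with the smallest p in the i-TERTci and both ADR comparisons, and for up to 3 companion genes per list by p. Those of Tlr2, Tlr8, Folr2, Gpnmb and Lst1, and markers named singly, were chosen after their values were seen. DESeq2 1.42.0, other factors and filters, a replicate block, keeping the liver-like library and leaving out each library were the alternatives. DESeq2 with that library was added after seeing the data. No label gives a batch. Each library is 1 mouse, and counting error is small at these depths except for genes under about 1 CPM. A result for 1 listed gene is not reported here.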

Additional observations from a re-analysis of the deposited data

Results flagged for a closer look

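In groups of 4 libraries, a single library stood far from the other 3 in 5 of 78 tests, and chance alone would give about 1 in 20. Fcgr3 was lowest in actin-rtTA+ replicate 1 at 2.35 CPM, against 3.57 to 3.64 CPM in the other 3. Actin-rtTA+ replicate 2 was highest for Cd86 at 1.83 CPM (others 1.21 to 1.29), for Aif1 at 2.37 CPM (others 1.02 to 1.23) and for Lst1 at 3.06 CPM (others 1.64 to 1.70). Ptprc was highest in TERT WT/WT saline replicate 1 at 7.92 CPM (others 5.29 to 5.54). In replicate 2 of TERT KO/KO mice given ADR, the liver-like library outside the group means, 21 members were above all 7 saline libraries. The share of all genes so placed was not counted.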

How the results depend on the processing

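The number of members called depended on the tool and on single libraries. In the i-TERTci comparison edgeR called 0, DESeq2 35, and edgeR without 1 library 0 to 38, the 38 only without i-TERTci replicate 2. After ADR in TERT KO/KO kidneys edgeR called 8, DESeq2 18, edgeR with the liver-like library 2, no filter on low counts 5 and, as an alternative added after the data were seen, DESeq2 with that library 25. Without 1 library the count was 0 to 25. It was 25 without ADR replicate 1, 0 without saline replicate 1 or 3, and 1 without ADR replicate 3 (Csf1r, lower) or saline replicate 2 (Itgam, higher). Omitting either ADR replicate leaves 1 mouse in that arm, which is assumed to vary like the other groups. After ADR in TERT WT/WT kidneys the count was 26 to 36 without 1 library, lowest without ADR replicate 2. Between genotypes after ADR it was 0 to 5, and for the interaction 0 to 2, in each case highest without TERT WT/WT ADR replicate 1. It was 0 in every alternative for the genotypes after saline and for i-TERTci against ADR.

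Whether replicate numbers pair the samples was not settled. In the i-TERTci experiment, libraries of the same number correlated at -0.12, 0.08 and -0.08 in their deviations from group means. In the ADR experiment the range was -0.34 to 0.36. Between the genotypes the ADR arms gave 0.36 and 0.24 for replicates 1 and 3, and the saline arms -0.34, 0.01 and -0.01. Deviations within such small groups are forced against each other, so these values cannot exclude pairing. With the number as a block, 5 members were called after ADR in TERT KO/KO kidneys, and the log2 fold change of Irf8 was 0.0080 instead of -0.07. Leaving out 1 library turned the direction of some members after ADR in TERT KO/KO kidneys, with these ranges of log2 fold change over the omissions, the lowest without ADR replicate 3, or for Folr2 without ADR replicate 1: Adgre1 -0.50 to 1.63, Csf2ra -0.017 to 1.11, Fcgr1 -0.68 to 1.94, Clec7a -1.17 to 1.69, Ly86 -0.088 to 2.02, Cd86 -0.16 to 1.30, Folr2 -0.29 to 0.67, Mpeg1 -0.37 to 1.99, Aif1 -0.38 to 1.95, Lst1 -0.87 to 0.92, Ms4a7 -1.27 to 1.85, Ptprc -0.21 to 1.92, Ikzf1 -0.61 to 1.42 and Irf8 -0.30 to 0.11. In the i-TERTci comparison Folr2 ranged from -0.41 to 0.35, below 0 without i-TERTci replicate 2 or actin-rtTA+ replicate 1. The cause of these changes was not tested.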
